A study of Mus musculus with 4 samples.

Results

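The genes examined here were 10 members of the Toll-like receptor system among the 21462 genes of the table: the endosomal receptors *Tlr3*, *Tlr7*, *Tlr8*, *Tlr9* and *Tlr13*, the surface receptors *Tlr2* and *Tlr4*, and the chaperone and adaptor genes *Unc93b1*, *Myd88* and *Ticam1*. They were taken by gene symbol, all 10 were found, and all 10 passed the filter on low values (a mean of at least 10 normalized counts). Smooth muscle cells were sorted from lungs of C57BL/6 mice and their RNA was sequenced, giving 2 Tet3 mutant and 2 control libraries. The comparison asks what the loss of TET3, an enzyme that oxidizes 5-methylcytosine in DNA, does to the transcripts of these cells. The mutants carried *Tet3* fl/fl, a tamoxifen-inducible Cre driven by the α-smooth muscle actin promoter (α-SMA-ERT2-Cre) and a ROSA26 tdTomato reporter, with tamoxifen given from 8 weeks of age. The controls lacked the floxed allele. The methods give controls in general the Cre, the reporter or both, and sorting for tdTomato means that these carried the reporter. Labelling through the inducible Cre would also need the Cre and tamoxifen, which are not stated separately for these controls. Hematopoietic cells were removed with CD45 and Ter-119 beads before DAPI- tdTomato+ cells were sorted. That promoter is also active in myofibroblasts, so the reporter does not mark smooth muscle cells alone. The labels give neither the sex of the mice nor a batch, and the time between tamoxifen and collection is not given for these libraries. The libraries of a genotype are described as coming from independent animals.

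Toll-like receptors are membrane proteins of the innate immune system that recognise conserved microbial molecules. TLR2 and TLR4 sit at the cell surface and bind bacterial lipopeptides and lipopolysaccharide, whereas TLR3, TLR7, TLR8, TLR9 and TLR13 sit in endosomes and bind nucleic acids. The endosomal receptors depend on the chaperone UNC93B1 to leave the endoplasmic reticulum, and the receptors signal through the adaptor MYD88 except TLR3, which uses TICAM1 (TRIF), an adaptor that TLR4 uses as well. In the lung these genes are known best from macrophages and dendritic cells, and structural cells express a part of them.

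The members share little in position apart from the X chromosome. On GRCm38, *Tlr8* (ENSMUSG00000040522, chrX:167242696-167264329, minus strand) and *Tlr7* (ENSMUSG00000044583, chrX:167304929-167330558, minus strand) are neighbours with 40.6 kb between their annotated ends, and *Tlr13* (ENSMUSG00000033777, chrX:106143204-106160493, plus strand) lies elsewhere on the same chromosome. The stretches upstream of *Tlr8*, *Tlr13* and *Tlr9* are shown because *Tlr8* and *Tlr13* are X-linked and differed widely between the controls, while *Tlr9* differed least between the controls among the endosomal receptors. They come from the RefSeq table for GRCm38.p6, which held 7 of the 10 members, all but *Tlr7*, *Unc93b1* and *Tlr4*. They are written 5′ to 3′ on the strand of the gene, lie outside annotated exons, and correspond to chrX:167264330-167264579 (minus strand), chrX:106143025-106143203 (plus strand) and chr9:106222348-106222597 (plus strand). Capitals mark a PU box (GAGGAA, or TTCCTC where it lies on the other strand) and, in *Tlr9*, an AP-1 site (TGANTCA).
Tlr8: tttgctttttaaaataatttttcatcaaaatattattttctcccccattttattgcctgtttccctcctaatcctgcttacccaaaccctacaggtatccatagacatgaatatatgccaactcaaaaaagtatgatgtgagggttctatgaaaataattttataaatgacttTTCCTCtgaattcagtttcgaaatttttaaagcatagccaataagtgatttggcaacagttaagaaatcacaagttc
Tlr13: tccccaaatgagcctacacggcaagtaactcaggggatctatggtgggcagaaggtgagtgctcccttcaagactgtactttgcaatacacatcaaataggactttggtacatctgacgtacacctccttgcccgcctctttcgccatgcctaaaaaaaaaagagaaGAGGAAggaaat
Tlr9: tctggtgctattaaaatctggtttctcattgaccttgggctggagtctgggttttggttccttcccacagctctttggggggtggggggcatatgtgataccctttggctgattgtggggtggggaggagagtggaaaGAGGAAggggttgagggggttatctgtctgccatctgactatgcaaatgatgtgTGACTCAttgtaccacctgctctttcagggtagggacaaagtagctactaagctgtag
These motifs were chosen after the sequences had been seen and were searched on both strands in the 250 bases before each RefSeq start, and the matches printed here do not overlap each other. A PU box was found in 4 of the 7 members (*Tlr8*, *Tlr9*, *Tlr13* and *Ticam1*), against 23.3% of all 32851 such windows. The matches began 77 bases before the RefSeq start in *Tlr8*, 83 in *Tlr13* and 112 in *Tlr9*. The AP-1 site occurred in *Tlr9* alone of the 7, 58 bases before its start, against 6.75% of windows. The windows of *Tlr3*, *Tlr2* and *Myd88* held neither motif. Exons covered 178 of the 250 bases in the window of *Tlr3*, 159 in *Tlr2* and 23 in *Myd88*. They covered 71 in *Tlr13*, 19 in *Ticam1* and 0 in *Tlr8* and *Tlr9*, so the windows do not compare like with like.

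The libraries held between 6805272 and 7164573 normalized counts each. *Tet3* itself had 1847 and 1926 normalized counts in the first and second control against 1534 and 1444 in the first and second mutant. Control replicate 2 stood apart from the other libraries: *Xist* had 2 normalized counts there against 5214 to 6781 elsewhere, and the Y-linked *Ddx3y* had 774 there and was listed at 0 elsewhere, so that sex, as these genes read it, is not balanced over the genotypes. It was the lowest library in 33.1% of the 16659 genes tested. The fold changes of the receptors are therefore also given without it. The label of the cells was checked against markers. Smooth muscle markers were present (8 of 8 listed, summed 4567 to 5848 normalized counts in controls and 6519 to 6894 in mutants), but markers of other cell types were present as well. Per kb of exon, the median marker had 222 normalized counts for smooth muscle, 267 for macrophages, 354 for fibroblasts, 330 for endothelium and 594.5 for alveolar epithelium. Markers of a list differed widely, from 44.9 to 404 per kb for smooth muscle and from 154 to 910 for alveolar epithelium. These medians therefore do not give the shares of the cell types. The alveolar epithelial markers (4 listed) summed to 3273 and 4882 normalized counts in the controls and 2982 and 3180 in the mutants, highest in control replicate 2. None of the markers on any list was at 0.

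All 10 members had a positive log2 fold change, Tet3 mutant over control on the log2(normalized count + 1) scale, and none passed the test. The fold changes ran from 0.01 for *Ticam1* to 0.88 for *Tlr13* with a median of 0.37, against a median of -0.01 over all genes tested and a positive sign in 49.0% of them. The limma adjusted p, taken over all 16659 genes, was between 0.681 and 0.992 for the members, and 0% of all genes tested had an adjusted p under 0.05. At an unadjusted p under 0.05 there were 0 members, against 6.68% of all genes. This count rested on the libraries used: without control replicate 1 it was 6 of the 10 (*Tlr3*, *Tlr7*, *Tlr8*, *Tlr9*, *Tlr13* and *Tlr2*), beside 3366 of the 16659 genes, and without control replicate 2 it was 0, beside 894 genes. In 5 members, *Tlr3*, *Tlr9*, *Tlr13*, *Tlr2* and *Unc93b1*, both mutant libraries lay above both controls, against 19.6% of all genes higher in this way and 39.0% that did not overlap in either direction. In the other 5 members the groups overlapped. Control replicate 2 was the lowest library in 7 of the 10 members. Without it the median of the members was 0.19 and their range -0.09 to 0.38. The study itself examined genes of endosomal receptor signaling in these libraries, so their direction here is not independent evidence. In bulk RNA, more cells of a type and more RNA per cell cannot be told apart.

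**Figure D1:**
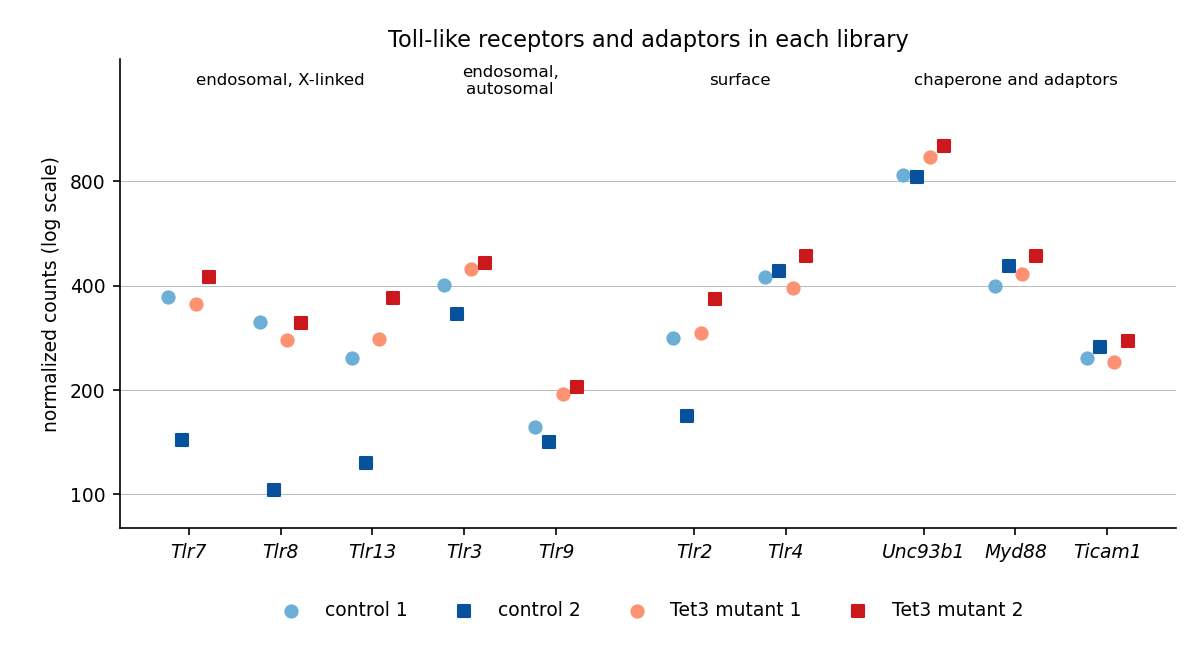
Normalized counts (log scale, vertical axis) of the 10 genes in each of the 4 libraries, with control libraries in blue and Tet3 mutant libraries in red. Control replicate 2 (dark blue squares) lies far below the other libraries for *Tlr7*, *Tlr8* and *Tlr13*, at 103 to 144 counts against 247 to 425, and among them for *Tlr4*, *Myd88* and *Ticam1*.

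The X-linked endosomal receptors had the largest fold changes of the 10 members and the largest spread between the controls. *Tlr7*, a receptor for single-stranded RNA, had 372 and 144 normalized counts in the first and second control against 355 and 425 in the first and second mutant. Control replicate 2 was low, and the other control lay between the mutants. The control mean was 258 ± 161 (SD, n = 2) and the mutant mean 390 ± 49.5 (SD, n = 2), a log2 fold change of 0.74 (standard error 0.45, limma adjusted p 0.701). Without control replicate 2 the log2 fold change was 0.06, and without control replicate 1 it was 1.43 with an adjusted p of 0.205 from limma.

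*Tlr8*, the neighbour and close relative of *Tlr7*, had 315 and 103 normalized counts in the controls against 279 and 313 in the mutants. Control replicate 1 was the highest of the 4 libraries and control replicate 2 the lowest, so the mutants lay between the controls. The log2 fold change was 0.71 (standard error 0.53, limma adjusted p 0.728), and it turned negative, at -0.09, without control replicate 2. *Tlr13*, a mouse receptor for bacterial ribosomal RNA, had 247 and 123 in the controls against 281 and 368 in the mutants. Both mutants lay above both controls, with means of 324.5 ± 61.5 (SD, n = 2) and 185 ± 87.7 (SD, n = 2). Its log2 fold change of 0.88 (standard error 0.37, limma adjusted p 0.681) was 0.38 without control replicate 2 and 1.38 without control replicate 1.

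Most other X-linked genes tested did not share the difference of *Tlr7* and *Tlr8* between the controls. *Tlr7* and *Tlr8* were more than 1 lower on the log2 scale in control replicate 2 than in control replicate 1. The same held for 23 (4.62%) of the other 498 X-linked genes tested and for 5.05% of autosomal genes. The median difference between those controls over the other X-linked genes was -0.05. Only control replicate 2 had counts of *Ddx3y*, so sex and library cannot be told apart here. Whether sex bears on these receptors was not tested. Summed over *Tlr7*, *Tlr8* and *Tlr13*, control replicate 1 had 934 normalized counts, control replicate 2 had 370, and the mutants had 915 and 1106. Control replicate 1 thus lay between the mutants and control replicate 2 far below. The median log2 fold change of the X-linked receptors was 0.74 with all libraries and 0.06 without control replicate 2, against 0.05 and 0.00 over the other X-linked genes.

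**Figure D2:**
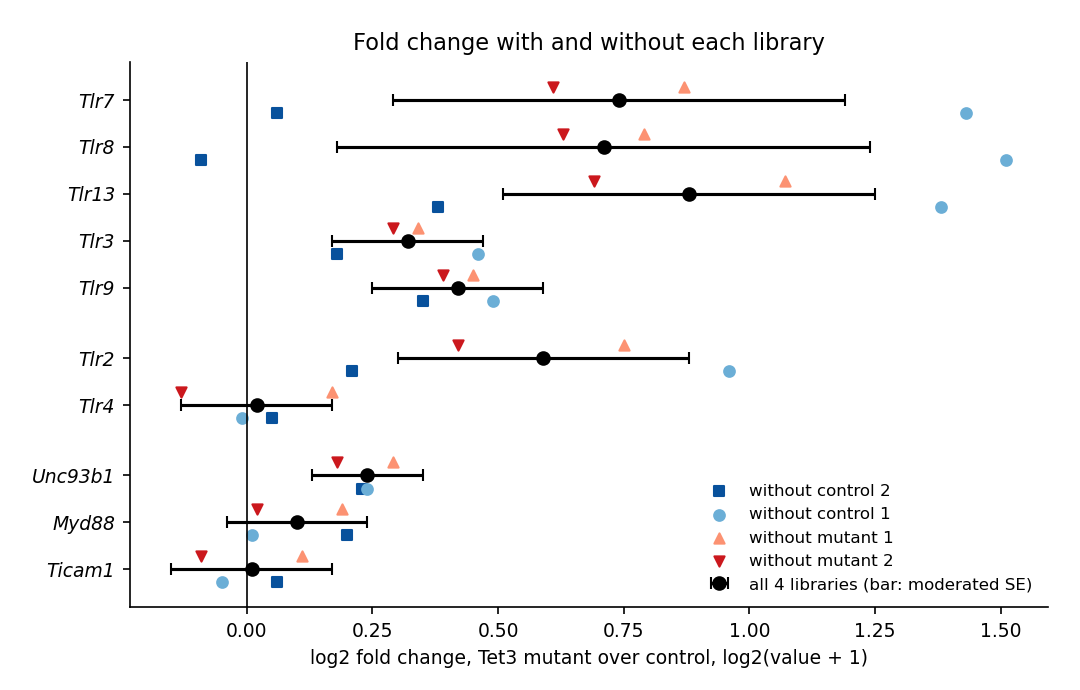
Log2 fold change of each gene (Tet3 mutant over control on log2(normalized count + 1), horizontal axis), with all 4 libraries (black points, bars are the moderated standard error from limma) and with each library left out in turn (coloured symbols). For *Tlr7*, *Tlr8* and *Tlr13* the choice of control moves the value from between -0.09 and 0.38 to between 1.38 and 1.51, whereas *Tlr9* stays between 0.35 and 0.49 and *Unc93b1* between 0.18 and 0.29.

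The autosomal endosomal receptors had smaller fold changes and less spread between the controls. *Tlr9* (ENSMUSG00000045322, chr9:106222598-106226883, plus strand), a receptor for unmethylated CpG DNA, had 156 and 142 normalized counts in the controls against 195 and 204 in the mutants. Both mutants lay above both controls, and the libraries of each genotype were close, with a control mean of 149 ± 9.90 (SD, n = 2) and a mutant mean of 199.5 ± 6.36 (SD, n = 2). The log2 fold change was 0.42 (standard error 0.17, unadjusted p 0.0559, limma adjusted p 0.681), and with 1 library left out it ran from 0.35 to 0.49. *Tlr3* (ENSMUSG00000031639, chr8:45395665-45411080, minus strand), a receptor for double-stranded RNA, had 403 and 331 in the controls against 448 and 464 in the mutants. Here too both mutants were above both controls. Its log2 fold change of 0.32 (standard error 0.15, limma adjusted p 0.681) was 0.18 without control replicate 2 and 0.46 without control replicate 1. Of the *Tlr3* exon bases, 7.3% overlap the antisense gene *Gm45542*, and reads from the 2 strands may not have been told apart there, since the strand setting of the counting is not stated. The pair had a median of 0.37, which ran from 0.27 to 0.47 with 1 library left out, against -0.01 over all autosomal genes tested.

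The surface receptors had unlike fold changes. *Tlr2* (ENSMUSG00000027995, chr3:83836272-83841767, minus strand), which binds bacterial lipopeptides, had 282 and 168 normalized counts in the controls against 292 and 367 in the mutants. Both mutants lay above both controls, although mutant replicate 1 exceeded control replicate 1 by only 10 counts, and control replicate 2 was again low. The log2 fold change was 0.59 (standard error 0.29, limma adjusted p 0.682), and 0.21 without control replicate 2. *Tlr4* (ENSMUSG00000039005, chr4:66827584-66930284, plus strand), the lipopolysaccharide receptor, had 423 and 441 in the controls against 395 and 486 in the mutants. The mutants lay on either side of the controls. The log2 fold change was 0.02 (standard error 0.15, limma adjusted p 0.977), and 0.05 without control replicate 2, and its sign depended on the library left out (range -0.13 to 0.17).

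Endosomal and surface receptors were compared within each library by the mean log2(normalized count + 1) of the 5 endosomal genes minus that of the 2 surface genes. This difference was -0.29 and -0.82 in control replicates 1 and 2 and -0.18 and -0.31 in mutant replicates 1 and 2. Control replicate 2 was low, and control replicate 1 lay between the mutants, so the groups overlapped. The means were -0.55 ± 0.38 (SD, n = 2) and -0.24 ± 0.09 (SD, n = 2), which differed by 0.31, less than the spread between the controls, and by 0.04 without control replicate 2. No p is given, since an exact permutation test of 2 against 2 libraries cannot go below 0.333. The median log2 fold change was 0.71 over the endosomal and 0.30 over the surface receptors with all libraries, and 0.18 and 0.13 without control replicate 2.

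The genes that carry the receptors and their signal varied less between the controls than the X-linked receptors did. *Unc93b1* (ENSMUSG00000036908, chr19:3935186-3949340, plus strand), the chaperone of the endosomal receptors, had 833 and 826 normalized counts in the controls against 940 and 1015 in the mutants. Both mutants lay above both controls, which were nearly equal. Its log2 fold change was 0.24 (standard error 0.11, limma adjusted p 0.681), and ran from 0.18 to 0.29 with 1 library left out. *Myd88* (ENSMUSG00000032508, chr9:119335934-119341411, minus strand), the adaptor shared by most of the receptors, had 400 and 457 in the controls against 433 and 488 in the mutants. The groups overlapped, and the log2 fold change was 0.10 (standard error 0.14, limma adjusted p 0.850). Its exons share 11.3% of their bases with *Acaa1a* on the opposite strand. *Ticam1* (ENSMUSG00000047123, chr17:56269319-56276786, minus strand), the adaptor of TLR3, had 247 and 267 in the controls against 241 and 277 in the mutants. The controls lay between the mutants, and the log2 fold change was 0.01 (standard error 0.16, limma adjusted p 0.992). Its sign changed with the library left out (range -0.09 to 0.11).

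Levels of different genes were compared as normalized counts per kb of exon. *Unc93b1* had the highest level, with a mean over the 4 libraries of 298 per kb and a range of 272.5 to 334.9, and *Myd88* followed at 173 (155 to 189). These ranges did not overlap each other or that of the next gene. The receptors and *Ticam1* lay close together, from 92.0 per kb for *Tlr2* to 50.1 for *Tlr9*, and each overlapped its neighbour in the order. The median gene tested had 53.95 per kb, with quartiles of 20.6 and 113, so the receptors lay near the middle of all genes tested. In control replicate 2 the levels of *Tlr7*, *Tlr8* and *Tlr13* were 35.3, 28.7 and 28.6 per kb, below that of *Tlr9* there, at 40.8. In the other 3 libraries all of them were above *Tlr9*.

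**Figure D3:**
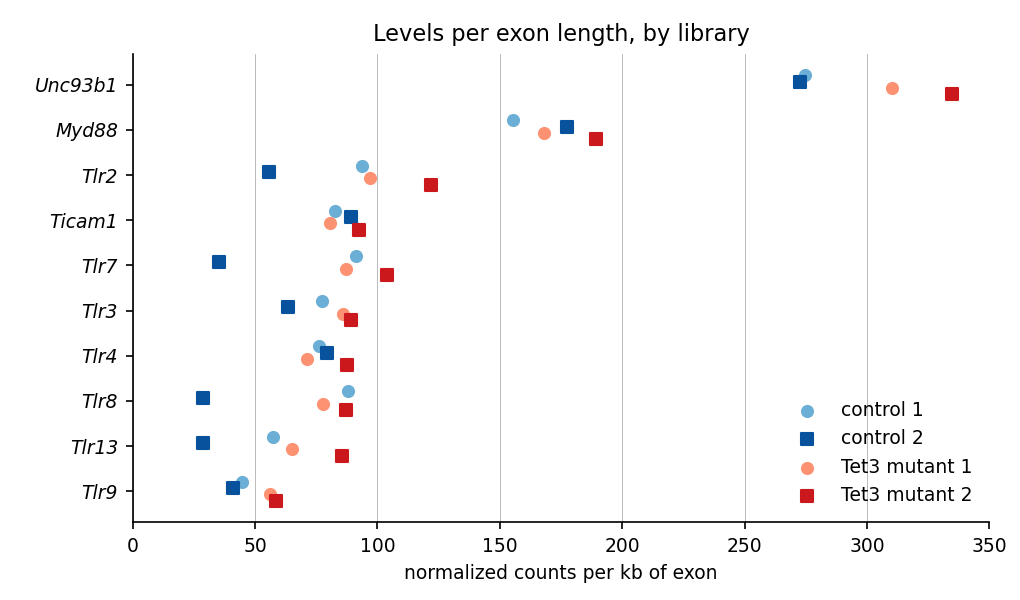
Normalized counts per kb of exon (horizontal axis, from 0) of each gene in the 4 libraries, ordered by the mean over libraries. *Unc93b1* and *Myd88* stand clear of the others, and the receptors lie between 28.6 and 122 per kb with overlapping ranges.

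Macrophage markers were also lowest in sum in control replicate 2. The 14 listed markers summed to 11317 and 9065 normalized counts in the controls (replicates 1 and 2) and to 12330 and 12930 in the mutants, none was at 0, and 12 of the 14 were lowest in control replicate 2 (33.1% of all genes). Their median log2 fold change was 0.40, and 0.25 without control replicate 2, and in 8 of them both mutants lay above both controls (19.6% of all genes). The markers did not move as one. *Marco*, *Siglecf* and *Chil3*, which are high in alveolar macrophages and were singled out after their values were seen, had 119, 188 and 776 normalized counts in control replicate 1 and 17, 22 and 136 in control replicate 2. In the mutants *Marco* had 77 and 82, *Siglecf* 125 and 188 and *Chil3* 610 and 757, all above control replicate 2 and none above control replicate 1. *Csf1r*, the receptor for colony-stimulating factor 1, had 1484 and 1478 in the controls, and the complement gene *C1qa* had 396 and 389. *Lyz2*, a lysozyme gene, went the other way, with 1120 and 1361 in the controls and 1197 and 1033 in the mutants. It was highest in control replicate 2, as was the sum of the alveolar epithelial markers given above. Which cells the *Lyz2* counts came from was not tested. The low value in control replicate 2 that marked *Tlr7*, *Tlr8* and *Tlr13* was thus shared by *Marco*, *Siglecf* and *Chil3* and not by *Csf1r*, *C1qa* and *Lyz2*. Other markers lay between these. *Ptprc* (CD45), a marker of hematopoietic cells at large, had 2136 and 1364 in the controls against 2674 and 1885 in the mutants. *Mertk* had 1061 and 764 in the controls against 892 and 1183 in the mutants, and *Fcgr1* had 143 and 67 against 144 and 213.

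**Figure D4:**
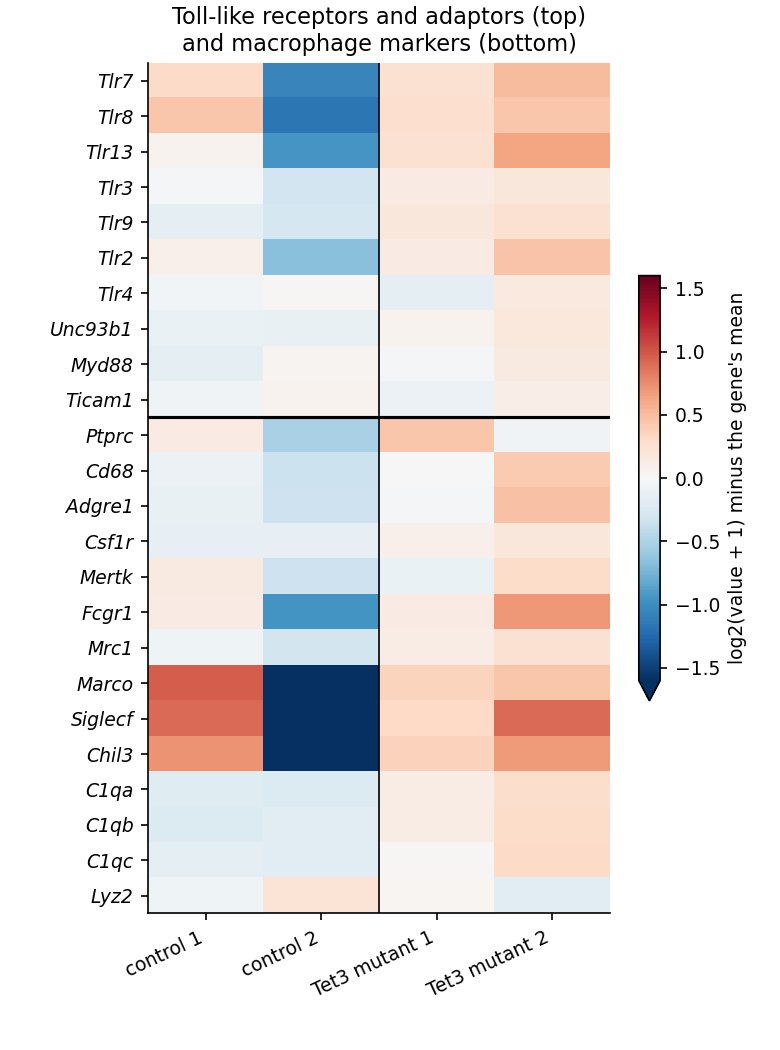
Log2(normalized count + 1) minus the mean of the gene over the 4 libraries (colour), for the 10 Toll-like receptor and adaptor genes (top) and the 14 macrophage markers (bottom). *Tlr7*, *Tlr8* and *Tlr13* and the markers *Marco*, *Siglecf*, *Chil3* and *Fcgr1* are blue in control replicate 2, while *Csf1r*, *C1qa*, *C1qb* and *C1qc* differ little between the controls.

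Set against the macrophage list, the X-linked receptors had 8.25 and 4.08 counts per 100 macrophage-list counts in the first and second control against 7.42 and 8.55 in the mutants. Only control replicate 2 was low, and the other 3 libraries lay close together. *Tlr3* and *Tlr9* together had 4.94 and 5.22 in the controls against 5.22 and 5.17 in the mutants, so the mutants lay within the range of the controls. The surface receptors had 6.23 and 6.72 in the controls against 5.57 and 6.60 in the mutants. For the chaperone and adaptors it was 13.1 and 17.1 in the controls against 13.1 and 13.8 in the mutants, with control replicate 2 highest. Abundant markers weigh most in the list sum, among them *Ptprc* (CD45), which is not particular to macrophages. These ratios thus hardly follow scarce markers such as *Marco* (119 and 17 normalized counts in the controls). Dendritic cell markers (6 listed, none at 0) summed to 1062 and 1382 in the controls against 1488 and 1687 in the mutants, with control replicate 1 lowest. T cell markers (4 listed) summed to 428 and 111 in the controls and 444 and 462 in the mutants, and B cell markers (4 listed) to 316 and 121 in the controls and 306 and 172 in the mutants. In both lists control replicate 2 was lowest. Neutrophil markers (5 listed) summed to 687 and 520 in the controls and 1346 and 790 in the mutants. The part of these cell types in the receptor values was not tested.

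A list of 30 other genes of the pathway was read from the same fit. None had a limma adjusted p under 0.05, 3 were higher and 0 lower at an unadjusted p under 0.05 (3.83% and 2.85% of all genes), and the median log2 fold change was 0.09. Both mutants lay above both controls in 12 of the 30 and below them in 4, against 19.6% and 19.5% of all genes. The 3 at an unadjusted p under 0.05 are accessories of the receptors or of their processing. *Cd180*, a receptor-like protein of B cells and macrophages, had 202 and 203 normalized counts in the controls against 295 and 294 in the mutants, with the libraries of each genotype within 1 count of each other. Its log2 fold change was 0.54 (standard error 0.14, unadjusted p 0.0122, limma adjusted p 0.681), and it kept to 0.53 to 0.54 with 1 library left out. *Ly86* (MD-1), the protein that binds CD180, had 172 and 150 in the controls against 229 and 221 in the mutants. Both mutants were again above both controls, and the log2 fold change was 0.48 (standard error 0.17, unadjusted p 0.0349, limma adjusted p 0.681). *Lgmn*, an endosomal protease that takes part in the cleavage of endosomal receptors, had 881 and 867 in the controls against 1138 and 1025 in the mutants. For this gene the log2 fold change was 0.31 (standard error 0.11, unadjusted p 0.0377, limma adjusted p 0.681).

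The other Toll-like receptors had 24 to 100 normalized counts in the 4 libraries, below the members. *Tlr5*, the flagellin receptor, had 97 and 90 normalized counts in the controls against 100 in each mutant library, with a log2 fold change of 0.10, or 0.04 without control replicate 2. *Tlr1*, a partner of TLR2, had 56 and 32 in the controls against 69 and 80 in the mutants, with a log2 fold change of 0.80. That of *Tlr1* was 0.40 without control replicate 2 and 1.19 without control replicate 1. In *Tlr1*, *Tlr5*, *Tlr11* and *Tlr12*, 4 of the 5 in this group, both mutants lay above both controls, against 19.6% of all genes. *Tlr11* had 25 and 55 in the controls against 59 and 60 in the mutants. *Tlr12* had 29 and 35 in the controls against 36 and 37 in the mutants. In *Tlr5*, *Tlr11* and *Tlr12* only a few counts thus parted the groups. The median of the group was 0.66, and 0.32 without control replicate 2. Of the co-receptors and ligand transfer proteins, the scavenger receptor gene *Cd36* had 1785 and 2105 in the controls against 1699 and 1709 in the mutants. Both mutants lay below both controls. *Lbp*, which encodes the lipopolysaccharide-binding protein, had 422 and 662 in the controls against 380 and 540 in the mutants, and the groups overlapped. Without control replicate 2 the log2 fold change of *Cd36* was -0.07 in place of -0.19. Among the folding, trafficking and proteolysis genes, *Hsp90b1* (the chaperone GP96) had 1847 and 1998 in the controls against 2163 and 1866 in the mutants, and the protease gene *Ctsb* had 1905 and 1810 in the controls against 1983 and 2006 in the mutants. The groups overlapped for *Hsp90b1* and did not for *Ctsb*.

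Downstream of the receptors, fold changes lay on both sides of 0. The adaptor genes *Pik3ap1* (817 and 762 normalized counts in controls, 740 and 857 in mutants) and *Tirap* (289 and 270 in controls, 267 and 280 in mutants) had log2 fold changes of 0.01 and -0.03. The kinase gene *Irak1* had 773 and 842 in the controls against 760 and 769 in the mutants, with both mutants below both controls and a log2 fold change of -0.08. *Traf3*, a ubiquitin ligase gene, had 661 and 556 in the controls against 601 and 604 in the mutants, and the groups overlapped. Singled out after their values were seen, *Irak2* (342 and 430 in controls, 269 and 301 in mutants) and the ligase gene *Traf6* (551 and 599 in controls, 449 and 505 in mutants) had log2 fold changes of -0.43 and -0.27. Without control replicate 2 these were -0.26 and -0.21, and without control replicate 1 they were -0.59 and -0.33. In both the mutants lay below the controls. In *Irak4*, likewise singled out, they lay above them (345 and 295 in controls, 395 and 412 in mutants, log2 fold change 0.34). The 5 kinases and ligases had a median of -0.08. Of the inhibitors, *Tollip* had 787 and 761 in the controls against 701 and 773 in the mutants, and *Irak3* had 332 and 249 in the controls against 344 and 357 in the mutants. The groups overlapped for *Tollip* and not for *Irak3*, with a log2 fold change of 0.28 for the latter, or 0.08 without control replicate 2.

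**Figure D5:**
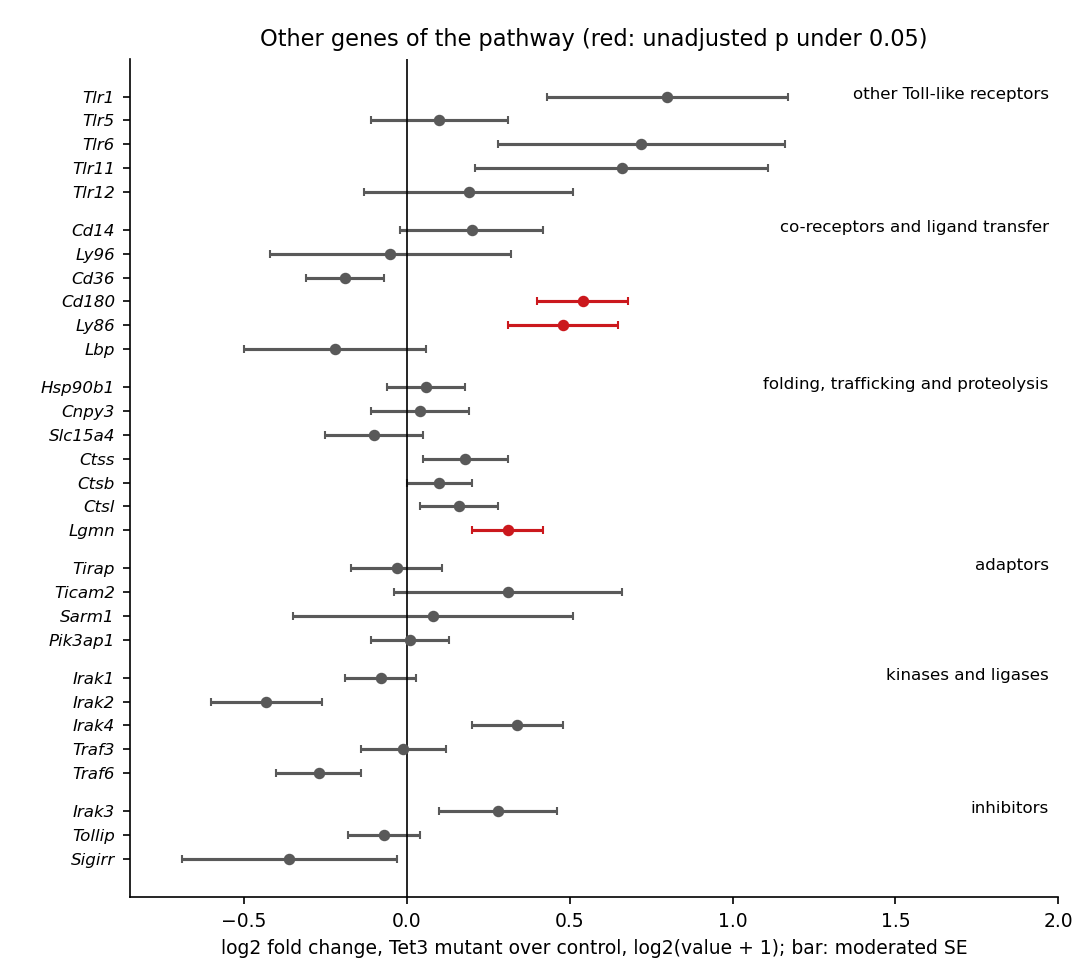
Log2 fold change (Tet3 mutant over control on log2(normalized count + 1), horizontal axis) of the 30 other genes of the pathway by role, with bars for the moderated standard error from limma and red for an unadjusted p under 0.05. *Cd180*, *Ly86* and *Lgmn* are red, and the kinases and ligases lie on both sides of 0 with a median of -0.08.

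Genes with a profile most like that of *Tlr7* or *Tlr4* were looked for among the 12052 tested genes that had a mean of at least 50 and were not listed as unnamed clones or predicted genes, by the root mean square difference of log2(normalized count + 1) centred over the 4 libraries. Nearest to *Tlr7* were *Rspo1* (0.039), *Hvcn1* (0.053), *Siglec1* (0.055), *Gxylt2* (0.055) and *Pycr1* (0.062). *Rspo1* had 68 and 24 normalized counts in the controls against 62 and 73 in the mutants, and *Gxylt2* 325 and 116 against 317 and 369. *Siglec1*, the macrophage lectin sialoadhesin, had 522 and 212 in the controls against 482 and 635 in the mutants. Their low control replicate 2 follows from the choice by likeness to *Tlr7*. None of these nearest genes was on the macrophage list. *Tlr8* ranked 11 in likeness to *Tlr7* at 0.093, *Tlr13* ranked 48 at 0.152 and *Tlr2* ranked 160 at 0.234, whereas *Tlr3* ranked 1370 and *Tlr9* ranked 1734. Nearest to *Tlr4* were *Slc39a3* (0.006), *Ddx56* (0.008), *Asb7* (0.009), *Siae* (0.010) and *Tec* (0.011), and *Ticam1* ranked 100 at 0.040. These distances rest on 4 libraries and describe them alone.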

How the data were processed

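RNA from sorted lung smooth muscle cells was measured by sequencing in 2 Tet3 mutant and 2 control libraries, grouped by the genotype in their labels. By the methods and the processing notes, ribosomal RNA was depleted, stranded total RNA libraries were read single-end, and Trimmomatic 0.36 (trimming), STAR 2.6.0c (alignment to mm10, GRCm38) and featureCounts from Subread 1.6.0 (counting reads on exons) were used. Reads of several genes or places were left out, and the strand setting is not given in the sources used here. The deposited values are a score: counts that the authors scaled with DESeq2 and rounded. Raw counts were not used here, so no count test was run and the raw depth of a library is unknown.

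Values were analysed as log2(value + 1), a scale that understates changes of low genes. For the 16659 genes with a mean of at least 10, limma 3.58.1 under R 4.3.3 was fitted on genotype (two-sided moderated test, eBayes with trend), with Benjamini-Hochberg adjustment over all of them and a threshold of 0.05. The fit was tested on simulated data in which all genes had the same setting for the spread between libraries and no library stood apart. That test does not show how often changes as small as those of the members would be found. The p-values set the difference between genotypes against the spread of libraries within a genotype, which limma moderates over all genes. In the controls that spread also holds the difference in sex as read from *Xist* and *Ddx3y*. The lowest member value, 103, was far above the floor of 3 counts, and such floors cover counting error only. Exon lengths and overlaps came from the GENCODE annotation of GRCm38, where 99.8% of the genes were found, and upstream sequences from RefSeq.

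The text names all 10 members and, of the pathway list, each gene at an unadjusted p under 0.05 and the 2 of highest mean in each role. It also names the 5 genes nearest to *Tlr7* and to *Tlr4* in profile. *Irak2*, *Irak4*, *Traf6*, *Tlr6*, *Tlr11* and *Tlr12* fall outside this rule and were named after their values were seen. The members and lists were chosen with earlier results of these data known. Alternatives were other pseudocounts (0.5 and 8), filters (a mean of at least 1 or 50, or none), TMM factors, equal totals, limma without the trend, a replicate block and each library left out.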

Additional observations from a re-analysis of the deposited data

How the results depend on the processing

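Leaving out 1 library moved the results most. The median log2 fold change of the endosomal receptors ran from 0.18 (without control replicate 2) to 1.38 (without control replicate 1), that of the X-linked ones from 0.06 to 1.43, of the autosomal ones from 0.27 to 0.47, of the surface receptors from 0.13 to 0.47, and of the chaperone and adaptors from 0.01 to 0.20. The endosomal minus surface difference ran from 0.04 to 0.58. The sign turned in *Tlr8* (-0.09 without control replicate 2, range to 1.51), in *Ticam1* (-0.09 without mutant replicate 2 and -0.05 without control replicate 1, range to 0.11) and in *Tlr4* (-0.13 and -0.01 without the same libraries, range to 0.17), and the other 7 members kept theirs. Such fits leave 1 residual degree of freedom and assume that the lone library varies like those of the other group. Under the other settings 0 of 90 member values changed sign. No member and no pathway gene passed under any setting, the smallest adjusted p of a member being 0.205 by limma without control replicate 1. Over all genes the count called was 0 under each setting except limma without the mean-variance trend, which called 1 gene (adjusted p 0.0307), and at an unadjusted p under 0.05 the fit with all libraries gave 1112. With 1 library left out that number was 3366 (without control replicate 1), 894 (without control replicate 2), 273 (without mutant replicate 1) and 414 (without mutant replicate 2). With all libraries kept, 2 members were under 0.05 before adjustment with equal totals, beside 1151 of the 16659 genes. The number was 1 with TMM factors (1125 genes), 1 without the trend (1138 genes) and 0 under each other such setting. Of the 30 pathway genes, the 3 became 9 without control replicate 1 and 0 when mutant replicate 1 or mutant replicate 2 was left out. Equal library totals moved the split of the genes under 0.05 before adjustment from 638 higher and 474 lower to 796 and 355 and the median of all genes from -0.01 to 0.04.

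With the replicate number as a block, limma called 0 genes, with 1637 at an unadjusted p under 0.05 (700 higher, 937 lower), and no call changed. Deviations of same-numbered libraries correlated at 0.13 across genes, with 2 pairs, and nothing in the labels says that a number marks a shared litter or day.

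The data are limited by 2 libraries a genotype, of which 1 control stands apart, and by values that keep no raw depth. Filters at a mean of 1 and with none keep the same 21462 genes.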
